A study of Mus musculus with 12 samples.

Results

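The mRNAs of 7 genes that mark red blood cells and their precursors were followed in basal forebrain and cerebral cortex of mice: Alas2, Slc4a1, Ahsp, Hba-a1, Hba-a2, Hbb-bt and Hbb-b2. They are 7 of the 37306 gene names on the array and are read by 8 of its 56568 analysed probes, since Hba-a1 has 2. The genes were selected on their difference between double knockout (DKO) and control (Con) mice in these same arrays, so that difference is described here without a test. All 8 probes were higher in every DKO array than in every Con array of the same region, with mean differences of 1.49 to 3.09 log2 units in basal forebrain and 1.23 to 2.17 in cortex for 7 probes; for the eighth, Ahsp, cortex gives only a bound.

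Haemoglobin is a tetramer of alpha and beta chains, each holding a haem, and it makes up nearly all the protein of a red cell. A reticulocyte, the young red cell just released from the marrow, has lost its nucleus but still carries globin mRNA, together with the mRNAs of the erythroid haem enzyme and of the band 3 anion exchanger. Brain tissue holds blood in its vessels unless it is flushed out, and low globin mRNA has also been described in neurons and glia. In these bulk samples, fewer or more cells of a type and less or more RNA per cell cannot be told apart.

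The DKO animals were ChatCre-PS1flox/flox-PS2-/- mice. Cre is driven from the gene of choline acetyltransferase, so the floxed allele is removed in cholinergic cells, while PS2 (Psen2) is lost in all cells. The Con animals were PS1flox/flox and PS2+/- without Cre, so both groups carry the floxed allele and Con mice lack 1 copy of PS2. There were 3 mice per genotype, aged 2 months and labelled male, and both regions of each mouse were hybridised to a 1-colour Agilent array, 12 arrays in all. They were killed by cervical dislocation. The sources used here do not say whether the brains were perfused.

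A level in what follows is the log2 intensity of a probe minus the 75th percentile of its array, so a level of 0 is that percentile. Levels of different probes are not comparable, because probes differ in brightness. The scanner called 68.89% to 74.97% of an array's probes well above background, and arrays of a group correlated with r from 0.985 to 0.9948. Psen2 was at -1.86 to -1.25 on the 6 DKO arrays and at 0.25 to 0.50 on the 6 Con arrays. Chat, the cholinergic marker, was at -0.08 to 0.26 in DKO and -0.30 to 1.00 in Con basal forebrain, and between -2.35 and -1.34 on all cortex arrays. The levels of Xist, an RNA of female cells, went against the label in 2 mice: DKO mice 1 and 3 had -2.32 to -1.53 in both regions, while the other 8 arrays had -9.14 to -6.48 and were not well above background. Results are therefore also given for DKO mouse 2 alone. Slide 1 held the 6 arrays of basal forebrain plus those of DKO mice 1 and 2 from cortex; slide 2 held cortex from DKO mouse 3 and from all 3 Con mice.

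Which transcript each probe can read bears on the globin results, so the probes are described first. All are 60 bases long. The Alas2 probe lies on chrX:147004993-147005052 and the Slc4a1 probe on chr11:102210256-102210315 (mm9, the build of the files), each near the end of its transcript, at bases 1806 and 4368. The alpha-globin probes overlap in what they read: the Hba-a1 3' probe, on chr11:32184427-32184486, and the Hba-a2 probe, on chr11:32197245-32197304, share a run of 59 bases, and both are annotated to the mRNAs of Hba-a1 and Hba-a2. The other Hba-a1 probe, on chr11:32183955-32184014 in coding sequence, is annotated to both mRNAs too. Hba-a1 and Hba-a2 can therefore not be separated here. Among all other pairs of the 8 probes the longest shared run was 7 bases. Such a run compares probe sequences only and cannot show which mRNAs a probe reads. The Hba-a1 3' probe and the Hba-a1 coding probe share a run of 6 bases, yet both are annotated to the same mRNAs. Whether the Hbb-bt and Hbb-b2 probes also read each other's mRNA was not tested. The Hbb-bt probe lies on chr7:110961105-110961164. The files give no position for the Ahsp and Hbb-b2 probes, and the Hbb-b2 probe lists the mRNAs that RefSeq now names Hbb-b2 and Hbb-b1. The 3 probes in coding sequence are shown as the files give them, because they show what was measured. Lower case is used throughout, as no part of them is singled out.
Hba-a1 coding probe: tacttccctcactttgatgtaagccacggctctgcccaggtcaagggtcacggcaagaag
Hbb-b2 probe: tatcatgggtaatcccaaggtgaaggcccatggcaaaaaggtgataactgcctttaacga
Ahsp probe: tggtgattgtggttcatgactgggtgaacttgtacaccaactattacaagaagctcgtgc

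Since the members moved together between arrays, the sequence before their start sites was also read, from RefSeq (GRCm38.p6), for the 250 bases that end just before the start. Of the 7 members 4 matched an entry, and Slc4a1, Ahsp and Hbb-b2 did not. Capitals mark matches, on either strand, to 4 words that promoters of erythroid genes are known for. The GATA box was searched as GATAA or as GATAG, in each case with an adenine or a thymine in front. The other boxes were searched by the letters of their names, CACCC and also CCAAT. The TATA box was searched in its common 6-letter form, TATAAA, with no other variant. Matches can lie end to end, as the CACCC words of Alas2 and a facing pair of CCAAT words of Hbb-bt do, and no 2 of them overlap. The windows are chr11:32283422-32283671 on the plus strand for Hba-a1, chr7:103813924-103814173 on the minus strand for Hbb-bt and chrX:150547167-150547416 on the plus strand for Alas2.
Hba-a1 promoter: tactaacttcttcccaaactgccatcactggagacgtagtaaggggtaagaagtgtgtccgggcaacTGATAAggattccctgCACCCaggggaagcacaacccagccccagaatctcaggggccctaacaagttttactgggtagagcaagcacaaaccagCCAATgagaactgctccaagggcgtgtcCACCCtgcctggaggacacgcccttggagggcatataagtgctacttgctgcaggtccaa
Hbb-bt promoter: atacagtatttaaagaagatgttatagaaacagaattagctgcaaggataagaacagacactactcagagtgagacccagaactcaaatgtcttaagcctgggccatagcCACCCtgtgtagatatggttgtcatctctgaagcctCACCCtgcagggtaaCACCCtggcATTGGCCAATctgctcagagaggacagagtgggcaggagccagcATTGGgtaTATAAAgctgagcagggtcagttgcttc
Alas2 promoter: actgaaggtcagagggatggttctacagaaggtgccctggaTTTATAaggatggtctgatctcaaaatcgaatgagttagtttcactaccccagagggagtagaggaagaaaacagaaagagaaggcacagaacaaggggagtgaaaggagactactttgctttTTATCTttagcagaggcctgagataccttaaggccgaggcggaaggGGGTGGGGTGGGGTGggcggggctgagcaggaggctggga

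Hba-a1 holds 1 GATA box, 2 CACCC boxes and 1 CCAAT box, and its TATA-like stretch does not match the searched word. The Hba-a2 window is the same sequence moved by 3 bases, identical over all 247 bases that overlap. Hbb-bt holds 3 CACCC boxes, 3 CCAAT boxes and 1 TATA box, and no GATA box as spelled here. Alas2 holds 1 GATA box, 3 adjoining CACCC boxes and 1 TATA box match far from the start. Of 32851 RefSeq promoters, 26.5% hold such a GATA box in the same window, 52% a CACCC box, 33.8% a CCAAT box and 12.4% a TATA box. Among the 4 member windows these counts were 3, 4, 3 and 2. A match is only a match of letters.

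**Figure D1:**
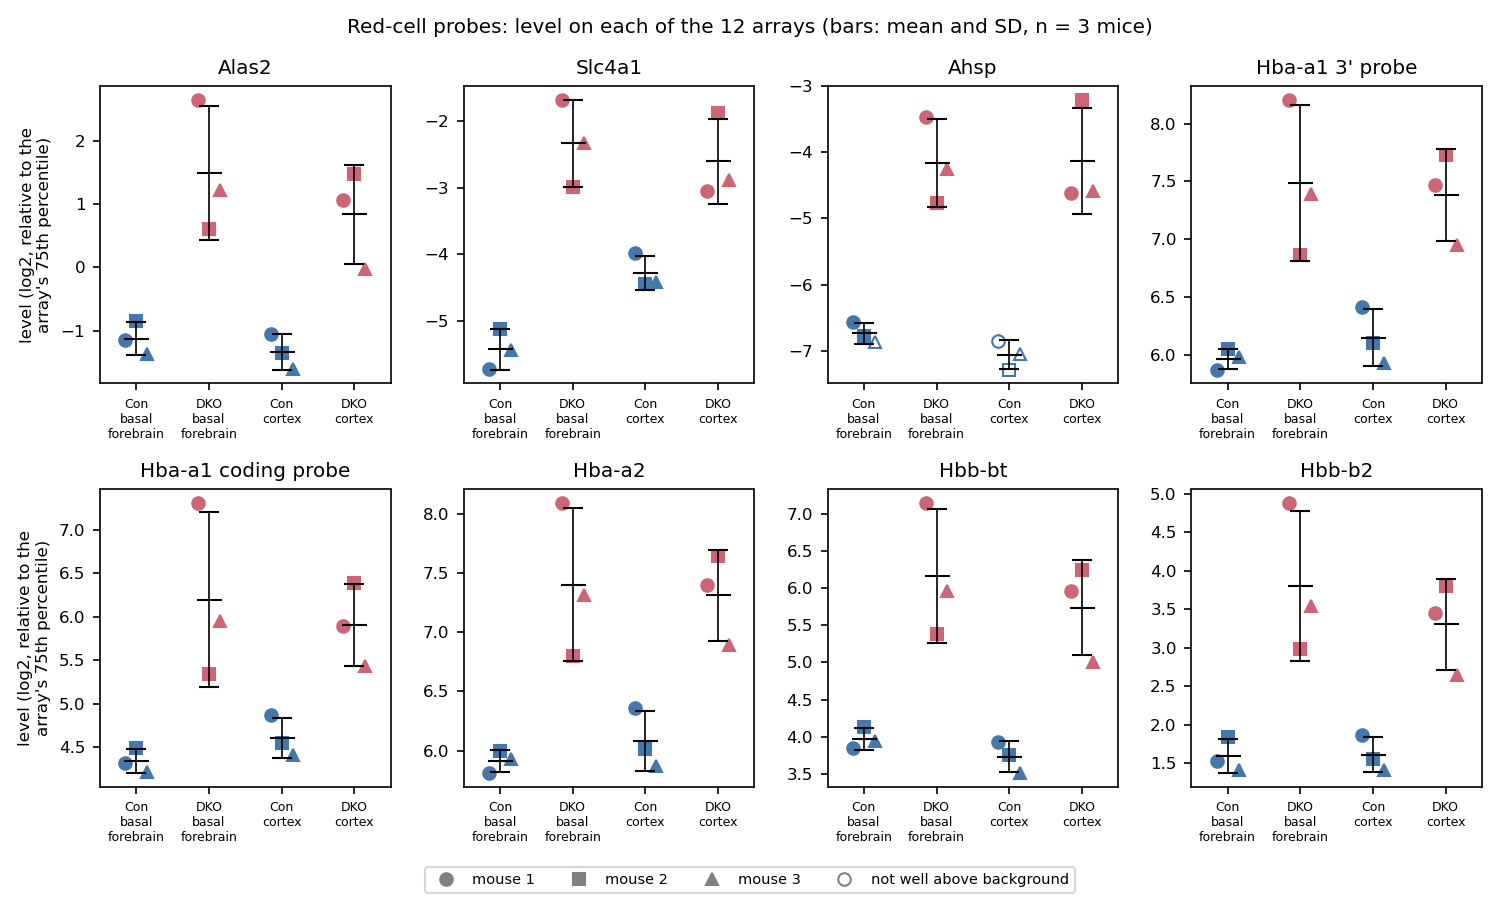
Level (log2, relative to the array's 75th percentile) of the 8 probes on the 12 arrays, by genotype and region, each panel with its own vertical axis. Points are mice, open points were not well above background, and bars give the mean and SD of 3 mice; in each panel every DKO point lies above every Con point of its region.

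The Alas2 gene encodes the erythroid form of the first enzyme of haem synthesis and lies on the X chromosome. In basal forebrain its level was 2.65, 0.60 and 1.22 in DKO mice 1, 2 and 3, and -1.15, -0.85 and -1.36 in Con mice 1, 2 and 3. Every DKO array was above the 75th percentile of its array and every Con array below it. The means differed by 2.61 (SE 0.49, n = 3 against 3), a 6.11-fold difference. In cortex the DKO mice had 1.06, 1.47 and -0.02 and the Con mice -1.04, -1.35 and -1.60. DKO mouse 3 was the lowest DKO array there, still 1.02 above the highest Con array, and the mean difference was 2.17 (SE 0.35).

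Slc4a1 encodes band 3, the anion exchanger that also ties the red-cell membrane to its skeleton. Its basal forebrain levels were -1.68, -3.00 and -2.34 in DKO mice 1 to 3 and -5.73, -5.11 and -5.43 in Con mice 1 to 3. The difference of 3.09 (SE 0.35), an 8.50-fold difference, was 1.83 with normexp background correction. The cortex levels were -3.06, -1.88 and -2.89 in DKO and -3.99, -4.45 and -4.42 in Con mice. The groups did not overlap there either, but the difference was 1.68 (SE 0.31), with the Con arrays higher in cortex than in basal forebrain.

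Ahsp is the alpha-haemoglobin stabilising protein, a chaperone that holds free alpha chains until they pair. It was dim: -3.46, -4.77 and -4.26 in basal forebrain of DKO mice 1 to 3, against -6.56, -6.77 and -6.88 in Con mice. The difference was 2.57 (SE 0.34), and 2 of 3 Con arrays were well above background. In cortex the DKO levels were -4.62, -3.20 and -4.58, and the Con levels -6.85, -7.29 and -7.05. No Con cortex array was well above background, so this is a bound: Ahsp was at least 4.65-fold higher in DKO cortex, counting each Con array at the dimmest probe it measured. The measured means differed by 2.93. With normexp background correction the Ahsp difference was 0.91 in basal forebrain and 0.76 in cortex. The bound therefore holds only for the background treatment used here.

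Alpha-globin chains pair with beta chains in haemoglobin, and each of their 3 probes is printed as 10 spots, whose SD within an array was 0.009 to 0.052. For the Hba-a1 3' probe the basal forebrain levels were 8.21, 6.86 and 7.39 in DKO mice 1 to 3 and 5.88, 6.05 and 5.98 in Con mice 1 to 3. The Con arrays lay within 0.17 of each other, and the DKO arrays spread over 1.34. Its cortex levels were 7.47, 7.73 and 6.95 in DKO and 6.42, 6.10 and 5.93 in Con mice. The differences were 1.52 (SE 0.31) in basal forebrain and 1.23 (SE 0.20) in cortex, 2.87-fold and 2.35-fold. The Hba-a2 probe, with the shared 59 bases, gave nearly the same: 8.09, 6.80 and 7.32 against 5.81, 5.99 and 5.93 in basal forebrain, and 7.40, 7.64 and 6.89 against 6.36, 6.01 and 5.87 in cortex. Its differences were 1.49 (SE 0.30) and 1.23 (SE 0.19).

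The Hba-a1 coding probe read the same mRNAs at another place. In basal forebrain it had 7.31, 5.34 and 5.95 in DKO mice 1 to 3 and 4.32, 4.49 and 4.21 in Con mice, a difference of 1.86 (SE 0.46). In cortex it had 5.90, 6.38 and 5.43 in DKO and 4.86, 4.54 and 4.41 in Con mice, a difference of 1.30 (SE 0.22). It ordered the DKO mice as the 3' probes did in both regions. In basal forebrain the coding probe gave 1.86 and the Hba-a1 3' probe 1.52. Both are read on the same arrays, so the SE of either probe does not measure the spread of that gap, which was not tested.

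The beta-globin genes Hbb-bt and Hbb-b2 encode adult beta chains. Hbb-bt was at 7.14, 5.38 and 5.96 in basal forebrain of DKO mice 1 to 3 and at 3.84, 4.13 and 3.94 in Con mice. In cortex it was at 5.96, 6.24 and 5.01 in DKO and 3.93, 3.76 and 3.51 in Con mice. The differences were 2.19 (SE 0.41), or 4.56-fold, and 2.01 (SE 0.28), or 4.02-fold. Hbb-b2 had 4.88, 2.99 and 3.55 against 1.53, 1.84 and 1.42 in basal forebrain, and 3.46, 3.81 and 2.65 against 1.86, 1.56 and 1.42 in cortex. Its differences were 2.21 (SE 0.45) and 1.69 (SE 0.27).

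Over the 8 probes the median difference was 2.20 in basal forebrain and 1.68 in cortex, where the median over all probes in the fit was 0.008 and -0.036. All 8 entered both fits, and in both regions 8 of 8 had no overlap between DKO and Con arrays; every DKO array lay above every Con array for 4.64% of all probes in basal forebrain and 9.49% in cortex. Ahsp entered through its DKO arrays alone, as it was not well above background on all 3 Con arrays of either region. As the members were chosen for this contrast, nothing is read from that count. The alpha-globin probes had the smallest differences in both regions on this scale. The order turned with normexp background correction, where Ahsp was the lowest (0.91 and 0.76) and Slc4a1 (1.83) was below Alas2 (2.50) in basal forebrain. The SD among DKO mice exceeded that among Con mice for 8 of 8 probes in each region: it ran from 0.65 to 1.05 in DKO and 0.09 to 0.31 in Con basal forebrain, and from 0.38 to 0.81 against 0.21 to 0.28 in cortex.

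Both mice whose Xist level went against the label could be left out, which leaves DKO mouse 2 alone against the 3 Con mice and no test. In basal forebrain the 8 differences were then 0.89 to 2.43, with a median of 1.40. In cortex they were 1.56 to 3.86, with a median of 2.30. DKO mouse 2 was thus above the Con mice in both regions, below the DKO average in basal forebrain and above it in cortex. On slide 2 alone, which holds DKO mouse 3 and the Con mice of the cortex comparison, the differences were 0.80 to 2.48, with a median of 1.16. For mouse 2 and for mouse 3 the highest cortex value was that of Ahsp, which was not well above background on any Con cortex array.

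**Figure D2:**
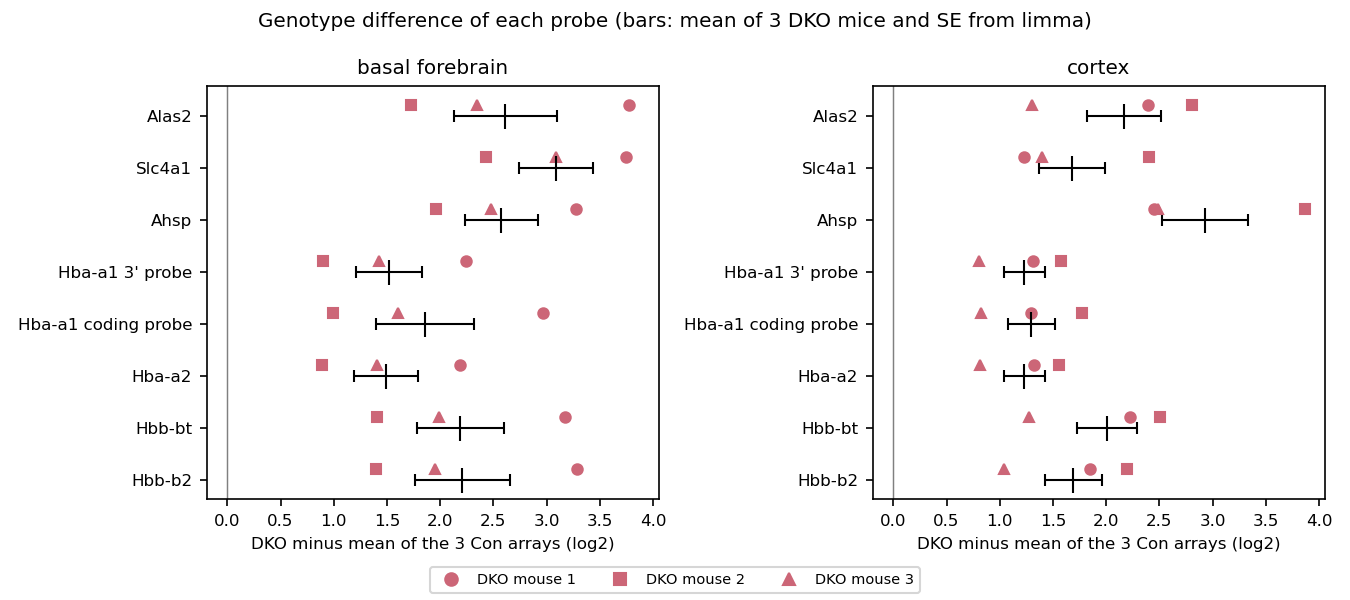
Difference in log2 level from the mean of the 3 Con arrays for each DKO mouse (points), with the mean of the 3 DKO mice and its SE from limma (bars), in basal forebrain and cortex. Every point lies above 0; mouse 1 is highest for all 8 probes in basal forebrain and mouse 2 in cortex.

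The order of the DKO mice was shared by the members. In basal forebrain mouse 1 was highest, mouse 3 next and mouse 2 lowest for 8 of 8 probes. In cortex mouse 2 was highest for 8 of 8, followed by mouse 1 in 6 and by mouse 3 in 2 (Slc4a1 and Ahsp). Among the Con mice, mouse 1 was highest in cortex for 8 of 8 probes, and the order in basal forebrain was mixed. Pearson's r between 2 member probes over the 12 arrays ranged from 0.90 to 1.00 over the 28 pairs, with a median of 0.97. With each group's mean taken off, r still ranged from 0.77 to 1.00, with a median of 0.97. These are descriptions: all probes of an array share 1 RNA sample, labelling and scan, and part of the alpha-globin pairs share sequence.

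Region was not used to choose the members, so basal forebrain was compared with cortex by limma, fitted over 41628 probes with Benjamini-Hochberg adjustment. In Con mice Slc4a1 was lower in basal forebrain by 1.14 (SE 0.36, adjusted p = 0.0213), a 2.20-fold difference, and lower in 3 of 3 mice, with differences of -1.74, -0.67 and -1.01. It was the 1 member probe of 8 to pass, in a comparison where 47.2% of all probes passed. With the mouse as a block, adjusted p = 0.0517 for Slc4a1 and the call is lost, while 48% of all probes passed. It is also lost without Con mouse 1 (-0.84, adjusted p = 0.189) or without Con mouse 3 (-1.20, adjusted p = 0.0664). All Con basal forebrain arrays were on slide 1 and all Con cortex arrays on slide 2, so within Con mice region and slide cannot be told apart. The other 7 probes differed by -0.27 to 0.33 between regions in Con mice, with adjusted p from 0.520 to 0.974 in limma. The 0.33 is that of Ahsp, which was not well above background in Con cortex, and it was -0.23 with normexp background correction.

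In DKO mice 0 of 8 probes passed (limma, adjusted p from 0.285 to 0.961), where 38.4% of all probes passed. An unadjusted p under 0.05 was found for 0 of 8 probes, and for 19701 of all 41628. The mean differences, from -0.03 for Ahsp to 0.65 for Alas2, averaged over opposite directions in the mice. Mouse 1 was higher in basal forebrain for all 8 probes, by 0.69 to 1.59. Mouse 3 was higher there too, by 0.32 to 1.25. Mouse 2 was lower in basal forebrain for all 8, by -1.57 to -0.82. Without DKO mouse 2, Alas2 (1.42, adjusted p = 0.0474) and Slc4a1 (0.96, adjusted p = 0.0412) passed in limma, 2 of 8 probes. The share of all probes passing in that fit was not counted. With all mice it was 38.4%, so nothing particular to the members is read from these 2 calls. Mouse 2 is also the DKO mouse with low Xist. DKO mice 1 and 2 had all 4 arrays on 1 slide, and they stood on opposite sides of 0 there.

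**Figure D3:**
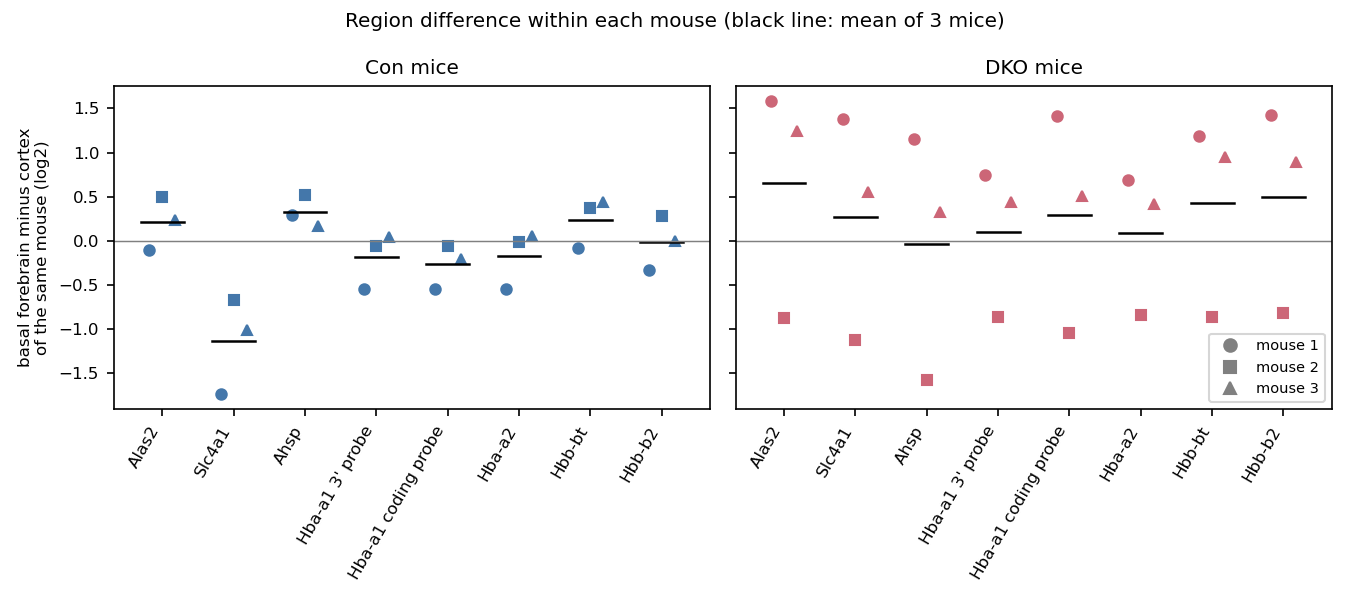
Difference in log2 level between basal forebrain and cortex of the same mouse for the 8 probes, in Con and DKO mice (points, 3 mice each), with their mean (black line). Con mice lie between -0.55 and 0.52 except for Slc4a1, while DKO mouse 2 lies at -0.82 or lower and mice 1 and 3 at 0.32 or higher for every probe.

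The genotype difference in basal forebrain was set against that in cortex as an interaction. It was largest for Slc4a1, at 1.41 (SE 0.50, limma, adjusted p = 0.576), and ran from -0.36 to 0.56 for the other 7 probes. The -0.36 is that of Ahsp, which was not well above background in Con cortex, and it was 0.15 with normexp background correction. None of the 8 passed (adjusted p from 0.576 to 0.912), 1 of 8 had an unadjusted p under 0.05, and 0% of all 41628 probes passed, with 3410 at an unadjusted p under 0.05. A difference between regions in the size of the genotype difference was not detectable with 3 mice.

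Among 17233 other genes, those with the pattern most like the members' mean over the 12 arrays were Tent5c (r = 0.98), Hbb-b1 (0.97), Apol11b (0.96), Ube2l6 (0.95) and Ch25h (0.95), followed by Lcn2, S100a8, S100a9, Fgfr3 and Ngp (0.93 to 0.94). The genotype differences of Tent5c, which encodes a poly(A) polymerase, were 1.32 in basal forebrain and 1.05 in cortex. After each group's mean was taken off, Tent5c (0.98), Naip2 (0.97), Ube2l6 (0.97), Bcl2a1d (0.96) and Wnk2 (0.96) were most like them. Tent5c and Ube2l6 were in both sets, so they followed the members between mice as well as between genotypes. All these values come from the same 12 arrays and carry no test. The Hbb-b2 member probe also lists the mRNA of Hbb-b1, so the likeness of Hbb-b1 can be in part built in.

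Other genes of red cells and of haem were read from 8 lists. For 84 of their 100 genes a probe entered the basal forebrain fit and for 86 the cortex fit. In neither region did any pass the genotype test (limma), where 0.0321% and 0.0102% of all probes passed, and 17 and 28 had an unadjusted p under 0.05. For genotype, the share of all probes at an unadjusted p under 0.05 was not counted, so such counts of a list have no base here. In 12 and 21 of them every DKO array was above every Con array, where that held for 4.64% and 9.49% of all probes.

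Of 12 further globin genes, 8 were tested. The adult beta-globin gene Hbb-b1 was high in the DKO arrays as the members were: in basal forebrain it was at 3.96, 2.00 and 2.65 in DKO and 0.66, 0.91 and 0.51 in Con mice, and in cortex at 2.64, 3.00 and 1.18 against 0.32, 0.13 and 0.15. Its differences were 2.18 (SE 0.46, adjusted p = 0.935) and 2.07 (SE 0.40, adjusted p = 0.249) in limma, and neither passed. As the Hbb-b2 member probe also lists the mRNA of Hbb-b1, the probes may in part read the same mRNA. The globins of other tissues had smaller differences: 0.22 and 0.30 for Cygb, the cytoglobin of fibroblasts, and 0.45 and 0.22 for Ngb, the neuronal globin. Mb, the muscle oxygen store, had 1.53 (SE 1.16) and 0.47 (SE 0.37).

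The 8 other genes of haem synthesis had differences of -0.72 to 0.10 in basal forebrain and -0.46 to 0.31 in cortex, beside 2.61 and 2.17 for Alas2. Alas1, which catalyses the same step outside red cells, had -0.12 in basal forebrain and 0.31 in cortex, and the later enzymes had 0.04 and 0.26 for Urod, 0.10 and 0.27 for Fech and -0.12 and -0.02 for Uros. The list's median was -0.08 and 0.18 over 8 genes. Iron and mitochondrial import genes, 10 tested, had medians of -0.04 and -0.02. Among them Tfrc, the transferrin receptor of growing red-cell precursors, had -0.06 and 0.02. Erythroid transcription factors had medians of 0.11 and -0.01 over 10 and 11 genes, and the brightest, Bcl11a, Zfpm1, Hbs1l and Lmo2, had -0.09 to -0.02 in basal forebrain and -0.10 to 0.35 in cortex. Outside them, and picked out after their values were seen, Nfe2 had 1.60 (SE 0.42, adjusted p = 0.982) and 3.12 (SE 0.48, adjusted p = 0.193), being well above background on 7 of 12 arrays and in the fit through its DKO arrays alone, and Myb had 1.13 and -0.46.

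Of the 20 membrane and skeleton genes, 15 were tested, with medians of 0.02 and 0.08. The brightest of them, Add2, Slc2a1, Dmtn and Mpp1, are also made by brain cells and had -0.16 to 0.14 and -0.15 to 0.43. Some genes of the red-cell membrane proper were dim. Rhag, Epb42 and Kel were well above background on 0 of 12 arrays, and Gata1, the erythroid master factor, on 2. Red-cell enzymes had medians of -0.03 and -0.14, and late reticulocyte genes 0.07 and 0.12, with Tent5c the largest of the latter. Haemoglobin and haem clearance genes had medians of 0.02 and 0.07, with 0.13 and 0.08 for Fth1 and 0.04 and 0.12 for Ftl1, the ferritin chains. Hp, which encodes the plasma protein that binds free haemoglobin, was picked out after its values were seen: it had 1.87 (SE 0.34, adjusted p = 0.759) and 1.99 (SE 0.41, adjusted p = 0.249).

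The summed levels of neutrophil and B cell markers were also higher in DKO arrays, and their part in the result was not tested. A sum adds linear levels of unlike probes, so the brightest probes of a list set most of it. The summed linear level over 14 neutrophil genes was 5.19 to 11.9 in DKO and 1.51 to 1.75 in Con basal forebrain, and 6.70 to 19.4 against 1.47 to 2.26 in cortex. None of the 13 neutrophil genes tested passed (limma, with 9 and 11 at an unadjusted p under 0.05), where 0.0321% and 0.0102% of all probes passed. In 10 and 11 of them every DKO array was above every Con array, where that held for 4.64% and 9.49% of all probes. Ngp, well above background on 8 of 12 arrays, entered both fits through its DKO arrays alone. Ltf, on 10 of 12, entered the cortex fit in that way, so these counts are a description. S100a9 and S100a8, calcium-binding proteins of neutrophils, had 3.08 and 3.14 in basal forebrain and 3.64 and 3.85 in cortex. The DKO mouse with the highest neutrophil sum was mouse 1 in basal forebrain and mouse 2 in cortex, as for the red-cell probes. B cell genes summed to 1.32 to 1.86 against 0.52 to 0.87 and to 0.89 to 1.34 against 0.51 to 0.66. Of them 5 of 9 passed as higher in basal forebrain and 1 of 8 in cortex, where 0.0321% and 0.0102% of all probes passed. Of those 5, Ms4a1, Fcrla and Cxcr5 entered the fit through their DKO arrays alone, as did Ms4a1 in cortex, so these counts are a description. Cd79b, a chain of the B cell receptor, was well above background on all 12 arrays and rose in basal forebrain (2.49, SE 0.16, adjusted p = 0.0192). DKO mouse 1 had the lowest B cell sum of the DKO mice in both regions. For the red-cell probes it was the highest in basal forebrain for all 8, and in cortex mouse 3 was the lowest for 6 of 8.

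Endothelial genes, the lining of the vessels that hold the blood, summed to 42.2 to 58.4 in DKO and 36.9 to 40.7 in Con basal forebrain, and to 40.1 to 53.1 against 30.1 to 35.1 in cortex. Among them Vwf, which encodes von Willebrand factor, had 1.09 and 1.75, while Cldn5, a tight-junction protein, had 0.28 and 0.46. The list's median was 0.16 and 0.02, with 2 and 4 of 10 genes negative, in cortex Cdh5 (-0.30), Tie1 (-0.13), Tek (-0.11) and Pecam1 (-0.11), named after their values were seen. In the fit, 0 of 10 passed in either region (limma), where 0.0321% and 0.0102% of all probes passed, and 2 and 3 had an unadjusted p under 0.05. The platelet sums overlapped between genotypes in both regions: 2.35 to 3.47 in DKO against 2.01 to 2.53 in Con basal forebrain, and 2.15 to 2.22 against 2.00 to 2.24 in cortex. By gene, 11 of 13 platelet genes were positive in basal forebrain (median 0.41) and 6 of 11 in cortex (median 0.01). Of all probes 52.2% and 44.0% were positive. In 6 and 3 platelet genes every DKO array was above every Con array, where that held for 4.64% and 9.49% of all probes. None of them passed (limma), where 0.0321% and 0.0102% of all probes passed, and 6 and 3 had an unadjusted p under 0.05. The brightest, Pf4, had 0.04 and -0.13, and Ppbp, named after its values were seen, 1.91 and 1.08. There was overlap as well in the sums of T and NK cell, choroid plexus and meningeal fibroblast genes. Klrb1c, the brightest T and NK cell gene, had a mean level of 4.30 over all arrays, and the next, Cd4, 1.08. The T and NK cell sum is thus mostly Klrb1c and says little of the other genes. Ttr, at a mean of 6.53 in DKO and 6.07 in Con cortex, sets most of the choroid plexus sum there. Choroid plexus genes summed to 91.6 to 123.1 in DKO and 56.0 to 107.5 in Con cortex, and to 9.49 to 11.9 on all basal forebrain arrays.

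**Figure D4:**
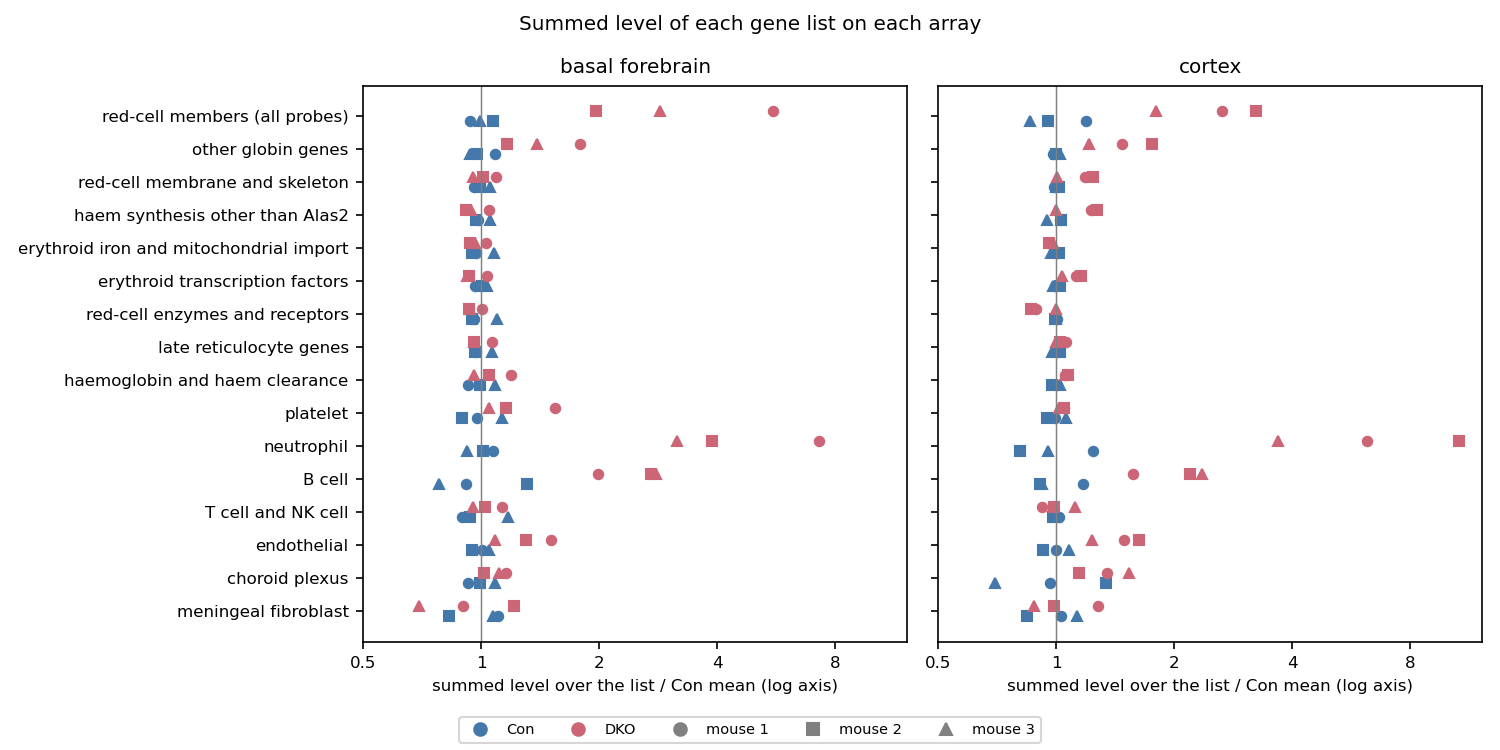
Summed linear level of each gene list on each array, divided by the mean of the 3 Con arrays of the region (log axis), for basal forebrain and cortex. The member probes reach 1.97 to 5.57 times the Con mean in DKO basal forebrain and 1.79 to 3.24 times in cortex. Among the other lists only the neutrophil, B cell, endothelial and other globin lists have all DKO points above all Con points in both regions. The brightest probes set most of a sum. The other globin sum is mostly Cygb, at a mean level of 4.31 over all arrays, followed by Hbb-b1 at 1.51.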

How the data were processed

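RNA of 2 brain regions of 6 mice was measured on 12 1-colour Agilent arrays. Per the file headers, Agilent Feature Extraction 10.7.1.1 wrote a background-subtracted, detrended intensity for each spot. The deposited intensity is not scaled between arrays, per the file headers. The scanner's flags for outlier, saturated and well-above-background spots (a yes or no per spot) were used as the files give them. The deposited series table also holds the authors' normalized log2 values, whose sorted values are identical on all arrays; the sources used here do not say how they were made, and they served as an alternative. Its 12 flag columns were not used.

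Log2 intensities of a probe's unflagged spots were averaged (37 probes with no unflagged spot on an array were left out, 56568 analysed) and the array's 75th percentile was subtracted. Names are those of the files; a RefSeq table gave current symbols for 32972 probes, used for the lists, where a gene was read from its brightest probe. No spot was saturated (0 found). Probes that the scanner called well above background throughout 1 or more groups of 3 entered limma 3.58.1 (R 4.3.3, lmFit and eBayes with trend), with Benjamini-Hochberg adjustment over all probes and a threshold of 0.05. Genotype was fitted on the 6 arrays of each region, and region and interaction on all 12 in 4 groups. By the titles, both regions of a number come from the same mouse; the correlation of their deviations from group means was -0.07 to 0.22. The number of arrays limits the precision, and replicates are separate mice. The fits were checked on simulated data.

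The members and lists were chosen with earlier results of these data known. Named are all members with every probe, the genes most like them, up to 4 genes a list by mean level, and Psen2 and Chat. Results for some further genes under these rules are left out here. Xist, Hp, genes near or below background and the list genes whose own values are given otherwise were named after their values were seen. Alternatives were other background correction, scaling, filters, brightest probe per gene, slide, leaving out a mouse, the mouse or number as a block and eBayes without trend; leaving out DKO mice 1 and 3 was added after the data were seen.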

Additional observations from a re-analysis of the deposited data

How the results depend on the processing

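The genotype difference of each member probe was above 0 under every alternative run. That was 126 of 126 values in basal forebrain (0.89 to 3.42) and 142 of 142 in cortex (0.76 to 3.86). As the members were chosen on this contrast and their DKO and Con arrays did not overlap, leaving out mice could not change the sign. The filters, brightest probe, replicate block and eBayes without trend keep the same difference. This count is therefore only a description. The median difference over the members was 1.40 to 2.60 in basal forebrain and 1.16 to 2.30 in cortex over all alternatives. It moved by more than the spread between mice in cortex without DKO mice 1 and 3 (2.30). Leaving out 1 mouse gave medians of 1.69 to 2.60 and 1.38 to 1.92. With normexp, the dim probes Slc4a1 and Ahsp had smaller differences, 1.83 and 0.91 in basal forebrain and 1.02 and 0.76 in cortex. A slide block could not be fitted in basal forebrain, where all arrays share a slide. In cortex it gave a median of 1.16, which is the comparison on slide 2 alone.

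Between regions, Slc4a1 in Con mice was the 1 call. It was lost, leaving 0 calls, with normexp (-0.63, adjusted p = 0.0586 in limma), with the slide as a block (-1.56, adjusted p = 0.183) and with the replicate block, the mouse here. Leaving out 1 mouse gave 0 to 1 calls in Con mice, 0 to 2 in DKO mice and 0 to 0 for the interaction. The slide block moved the Con median from -0.09 to -0.91; that estimate rests on the DKO cortex arrays, the only group on both slides. Leaving out 1 mouse gave medians of -0.21 to 0.08 in Con mice, -0.21 to 0.96 in DKO mice and -0.03 to 1.00 for the interaction. Without DKO mice 1 and 3 the last 2 were -0.87 and -0.79. Scaling by the array median turned the DKO median from 0.28 to -0.003. Of 400 region and interaction values under the threshold, 45 changed sign while staying under it.

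For the genotype comparisons the shared numbers do not pair the mice (correlations of -0.32 to 0.29), and the replicate block left the medians at 2.20 and 1.68. With the mouse as a block the region medians stayed at -0.09 and 0.28 and the interaction at 0.37. Both blocks are balanced over the groups compared, so they can change an SE and not a difference. No call other than that of Slc4a1 changed. Signal over background limits Ahsp in Con mice.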
